A study of Mus musculus with 12 samples.

Results

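This comparison sets 4 hippocampal RNA-seq libraries of rTg4510 mice given 3TC against 4 libraries of their littermate controls, 8 of the 12 libraries of the series, across all genes. The libraries were chosen by the condition in their labels, and 16618 of the 24384 genes in the table had enough counts to be tested. The rTg4510+3TC group consists of libraries F2, F3, M2 and M3. The rTg4510 group without drug (F2, F3, M1 and M3) is not in the contrast, and its values are given beside it. The littermate control group consists of libraries F1, F3, M2 and M3. The letters stand for the labelled sex, with 2 females and 2 males in each group.

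As background, the rTg4510 mouse carries a mutant human tau transgene under a tetracycline-responsive promoter. A second transgene, driven by the Camk2a promoter, supplies the activator in forebrain neurons, so that both transgenes are needed for tau to be made. The tau transgene sits in a vector with mouse Prnp sequence. The drug, 3TC (lamivudine), is a nucleoside analogue that blocks reverse transcriptases, used against HIV and hepatitis B virus. It can also block the reverse transcriptase of retrotransposons. In tauopathy, microglia and astrocytes become reactive, and C1q, the first component of complement, marks synapses for removal by microglia. The series title names the effect of 3TC on genes of inflammation in the hippocampus of this line as its subject.

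No group of littermates given 3TC was analysed here, so the transgenes, the other features of the line and the drug cannot be told apart in this contrast. The genotype of the littermates, the age of the mice, the dose and the duration of treatment are not stated in any source used here. The labels do not say whether the libraries of a group come from different animals. The counts of Xist and Ddx3y show both sexes in each group, so that no group comes from 1 animal. The p-values cover only the spread between these libraries, part of which may be technical. The RNA came from whole tissue, in which more cells of a type and more RNA per cell cannot be told apart.

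Library totals were 27351630 to 35357415 counts in rTg4510+3TC, 29732904 to 36112922 in rTg4510 and 27286787 to 58173678 in littermates (n = 4 each). Defining markers of hippocampus were present in all 8 libraries: Prox1, the transcription factor of dentate granule neurons, had 25.8 to 52.3 CPM (counts scaled to library size) in rTg4510+3TC and 28.9 to 75.8 CPM in littermates, and Wfs1, a marker of CA1 pyramidal neurons, 73.9 to 189 and 77.8 to 214 CPM. Dsp, also of granule neurons, varied more, with 7.11 to 36.5 CPM in rTg4510+3TC and 28.3 to 78.6 CPM in littermates. Fibcd1, also of CA1, had 96 to 113 CPM in rTg4510+3TC and 11.3 to 152 CPM in littermates. Iyd, a marker of CA3, was low, at 1.84 to 5.1 and 0.925 to 4.69 CPM. Some libraries also held markers of neighbouring tissue. The 14 tested thalamic neuron markers summed to 449 to 1711 CPM in rTg4510+3TC, where F2 was the highest, 448 to 544 in rTg4510 and 493 to 758 in littermates, where F1 was the highest. The 15 choroid plexus markers summed to 79.5 to 179 CPM in rTg4510+3TC, 29.9 to 4710.1 in rTg4510 and 69.99 to 4054 in littermates, with littermates F1 and F3 and rTg4510 M1 high in Ttr, the main transcript of that tissue. Littermate M2 had the highest summed level of myelin genes in its group, 12390.3 CPM, and of neocortical neuron markers, 1565 CPM. Among all 12 libraries, rTg4510 F3 was the highest in neocortical (2432 CPM) and striatal (813 CPM) neuron markers and the lowest in myelin genes (3486 CPM). The counts of Xist and Ddx3y went against the sex labels of littermates F3 and M3, which were crossed, and the fit reported here has no sex term.

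Between rTg4510+3TC and littermates, 8 genes passed at an adjusted p under 0.05 (edgeR quasi-likelihood test, Benjamini-Hochberg), which is 0.0481% of the genes tested. Of these, 4 were higher (0.0241%) and 4 were lower (0.0241%) in rTg4510+3TC. The higher genes were Prnp, Slc35f1, Car4 and Itgb2, and the lower genes were Esyt2, Wdr60, Ptprn2 and Dmpk. The unadjusted p was under 0.05 for 1427 genes (8.59%), 711 higher and 716 lower. The median log2 fold change over all genes was -0.00399, and 49.1% of genes were above 0. For genes with a mean of at least 1 CPM, the 95% interval of a log2 fold change reached 0.314 to either side of the estimate at the median gene, before any adjustment for the number of genes tested. In a wider view, the 4 libraries of rTg4510+3TC all lay above the 4 littermate libraries for 490 genes (2.95%) and all below them for 484 genes (2.91%). These last shares are the background against which the gene lists below are read. Some lists share genes, so their counts and medians are not independent of each other. Cxcl10, for example, is in both the interferon and the reactive astrocyte list.

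**Figure D1:**
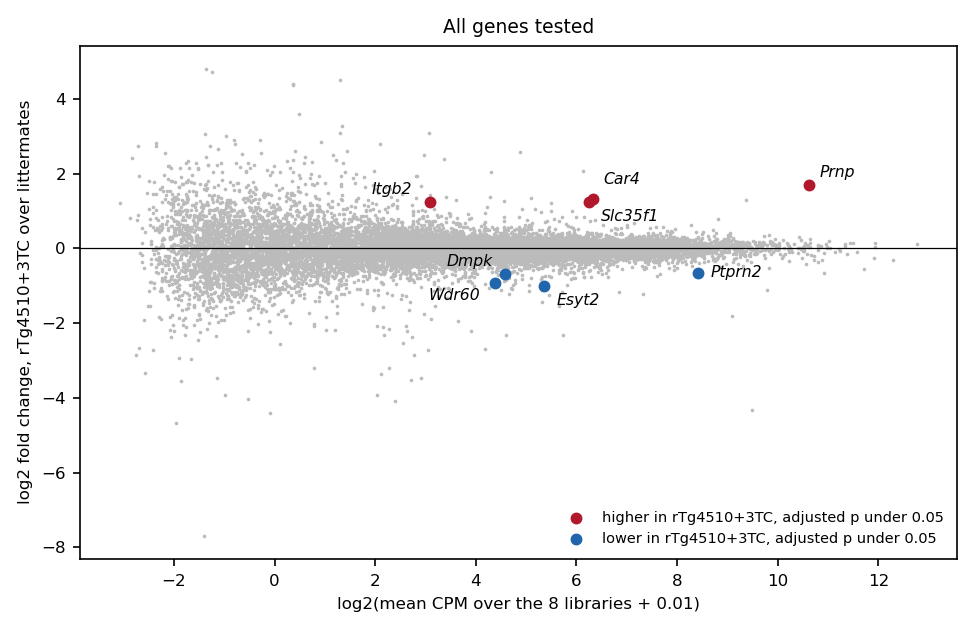
Log2 fold change of rTg4510+3TC over littermates (vertical axis) against the mean level over the 8 libraries on a log2 axis, for the 16618 genes tested. Coloured points are the 8 genes that passed, of which Prnp had the highest level and a log2 fold change of 1.69.

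Prnp encodes the prion protein, and its mouse sequence is part of the tau transgene vector. Prnp (chr2:131909928-131938429, + strand, mm10) had 1537, 2666, 3016 and 2419 CPM in rTg4510+3TC libraries F2, F3, M2 and M3, 2656, 2249, 2513 and 2260.1 CPM in rTg4510 and 774, 742, 685 and 785 CPM in littermates. Every rTg4510+3TC library lay above every littermate library, with rTg4510+3TC F2, the library high in thalamic markers, the lowest of its group. The means were 2409 ± 631 CPM in rTg4510+3TC and 747 ± 45.2 CPM in littermates (SD, n = 4 each). This is a log2 fold change of 1.69 ± 0.16 (SE, adjusted p = 0.000881, edgeR). In rTg4510 without drug it was 1.70 ± 0.16 against the same littermates. Whether reads of the transgene were counted for Prnp or for Mapt, the mouse tau gene, is not given in the sources used here. Mapt had 658, 673, 672 and 646 CPM in rTg4510+3TC and 579.9, 559, 604 and 621 CPM in littermates. Its groups did not overlap, and the difference of 0.16 ± 0.06 did not pass (adjusted p = 0.502). Camk2a, the gene whose promoter drives the activator, had 2457, 5329, 4988 and 4974 CPM in rTg4510+3TC and 5492, 5545, 5230.2 and 5900.3 CPM in littermates, with rTg4510+3TC F2 far below the others, and did not pass (-0.32 ± 0.18, adjusted p = 0.653).

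As background, published mapping of this line placed the activator transgene on distal chromosome 12, with loss of DNA across neighbouring genes, and the tau transgene within Fgf14 on chromosome 14. Of 5 neighbouring genes on distal chromosome 12, 3 fell and passed, and their order along the chromosome is Vipr2, Wdr60, Esyt2, Ncapg2 and Ptprn2. Esyt2 (chr12:116281196-116391050, + strand, mm10) encodes an extended synaptotagmin, a tether between the plasma membrane and the endoplasmic reticulum. It had 25.02, 26.6, 23.6 and 33.3 CPM in rTg4510+3TC, 29.4, 29.5, 28.3 and 26.3 in rTg4510 and 56.9, 54.02, 47.6 and 60.9 in littermates. The highest rTg4510+3TC library, M3, stayed below the lowest littermate, M2. The log2 fold change was -1.02 ± 0.11 (SE, n = 4 each, adjusted p = 0.00329, edgeR).

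Wdr60 (chr12:116206262-116263022, - strand), a subunit of the dynein that moves cargo in cilia, had 11.7, 16.3, 14.5 and 14.9 CPM in rTg4510+3TC, 15.3, 14.3, 14.9 and 15.4 in rTg4510 and 27.4, 28.5, 27.6 and 25.3 in littermates. The log2 fold change was -0.92 ± 0.11 (adjusted p = 0.00329, edgeR). Ptprn2 (chr12:116485720-117276849, + strand), a phosphatase-like protein of dense-core secretory vesicles, had 255, 256, 266 and 282 CPM in rTg4510+3TC, 257, 305, 258 and 268 in rTg4510 and 422, 426, 369 and 441 in littermates, a log2 fold change of -0.65 ± 0.08 (adjusted p = 0.00618, edgeR). In both genes the transgenic libraries, with and without the drug, lay below every littermate library.

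Ncapg2 (chr12:116405402-116463731, + strand), a condensin II subunit that lies between Esyt2 and Ptprn2, had 1.55, 1.34, 2.32 and 2.6 CPM in rTg4510+3TC and 4.67, 6.95, 5.58 and 6.34 CPM in littermates. Its fold change was the most negative of the 5, -1.59 ± 0.27, at a low level, and it missed the threshold (adjusted p = 0.0715, edgeR). Vipr2 (chr12:116077726-116146261, + strand), a receptor of vasoactive intestinal peptide and PACAP, went the other way, with 3.45, 3.17, 7.57 and 4.4 CPM in rTg4510+3TC and 2.09, 0.977, 0.868 and 1.52 CPM in littermates. Its groups did not overlap, and its difference of 1.75 ± 0.34 did not pass (adjusted p = 0.162). Fgf14 (chr14:123977907-124677127, - strand), a regulator of sodium channels, had 19.04, 17.3, 18.3 and 23.6 CPM in rTg4510+3TC and 27.9, 30.0, 24.3 and 27.2 CPM in littermates, -0.49 ± 0.16 on the log2 scale (adjusted p = 0.428), again without overlap. Of the 9 genes of the transgenes and their insertion sites, 1 was called higher and 3 lower. Set against rTg4510 without drug, the same 9 genes had a median log2 difference of -0.05, with 0 past the threshold.

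Slc35f1 (chr10:52690533-53111622, + strand) belongs to a solute carrier family related to nucleotide sugar transporters. It had 103, 115, 109.8 and 96.5 CPM in rTg4510+3TC, 100.5, 75.2, 103 and 116 in rTg4510 and 44.8, 46.1, 47.98 and 42.7 in littermates. The lowest rTg4510+3TC library was at 96.5 CPM and the highest littermate at 47.98 CPM, and the log2 fold change was 1.23 ± 0.11 (SE, n = 4 each, adjusted p = 0.000881, edgeR). None of the other 5 tested genes of the Slc35f family passed. The nearest to it by p were Slc35f3, at 0.23 ± 0.16 (adjusted p = 0.706), and Slc35f4, at 0.25 ± 0.19 (adjusted p = 0.736).

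Car4 (chr11:84957786-84966044, + strand) is a carbonic anhydrase held on the outer face of the cell membrane, where it buffers extracellular pH. It had 70.6, 126, 145 and 119.8 CPM in rTg4510+3TC, 109, 86.4, 132 and 113 in rTg4510 and 45.05, 44.4, 40.3 and 54.6 in littermates. As for Prnp, rTg4510+3TC F2 was the lowest of its group and still above every littermate. The log2 fold change was 1.32 ± 0.19 (SE, n = 4 each, adjusted p = 0.027, edgeR). The other 12 tested carbonic anhydrase genes did not pass, with Car8, at -0.92 ± 0.47, the next by p. Car4 is 1 of the 2 calls, with Dmpk, that are lost when single libraries are left out: without littermate F1, for example, only 6 genes passed. Both are also lost when the 8 libraries of the 2 groups are fitted alone.

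Dmpk, the gene of the kinase affected in myotonic dystrophy, was the fourth gene to fall, and it does not lie near an insertion site of the transgenes. Dmpk (chr7:19083849-19093821, + strand) had 20.5, 18.04, 18.9 and 16.2 CPM in rTg4510+3TC, 21.8, 21.2, 26.3 and 23.7 in rTg4510 and 28.9, 28.1, 31.9 and 29.5 in littermates. The 3 groups followed each other without overlap, rTg4510+3TC lowest and littermates highest. The log2 fold change was -0.68 ± 0.10 against littermates (SE, n = 4 each, adjusted p = 0.0298, edgeR). The difference between rTg4510+3TC and rTg4510 was -0.33 ± 0.10, with an unadjusted p of 0.00593 and an adjusted p of 0.9998 over all genes. Dmpk did not pass when sex was added as a term after swapping the labels of littermates F3 and M3.

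**Figure D2:**
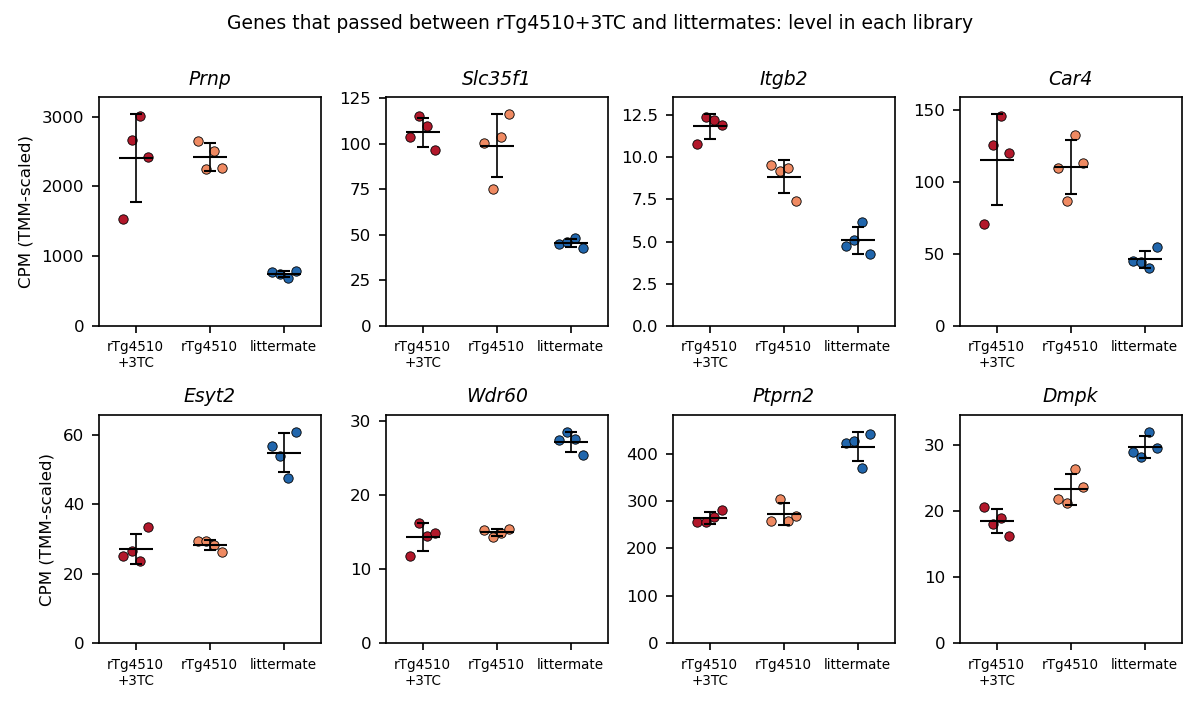
Level of the 8 genes that passed, in CPM, in each library of rTg4510+3TC (left), rTg4510 (middle) and littermates (right). Points are libraries, and bars give the mean and SD of 4 libraries. Prnp lay between 1537 and 3016 CPM in rTg4510+3TC and between 685 and 785 CPM in littermates. Dmpk and Itgb2 are the panels in which rTg4510 stands between the other groups, without overlap.

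The other genes with the smallest p among those lower did not pass. Rilpl1, an effector of Rab proteins at lysosomes and the primary cilium, had 42.1, 49.1, 55.4 and 48.6 CPM in rTg4510+3TC, 55.4, 54.6, 61.1 and 57.9 in rTg4510 and 69.3, 69.2, 68.8 and 73.3 in littermates, a log2 difference of -0.52 ± 0.08 (adjusted p = 0.0522, edgeR). It lay just outside the threshold, and every rTg4510+3TC library was below every littermate. Mxd4, which encodes a repressor that pairs with Max in place of Myc, had 25.3, 24.3, 23.98 and 23.05 CPM in rTg4510+3TC and 36.2, 30.5, 40.8 and 35.7 CPM in littermates (-0.57 ± 0.10, adjusted p = 0.143). Btg1, an antiproliferative gene, stood at 27.1 to 35.1 CPM in rTg4510+3TC and 39.2 to 43.7 CPM in littermates (-0.48 ± 0.09, adjusted p = 0.162), and Sfi1, a centrosomal protein gene, at 23.8 to 27.8 and 31.99 to 34.04 CPM (-0.39 ± 0.08, adjusted p = 0.162). In all 4 genes the groups did not overlap.

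On the higher side, Pmaip1, which encodes the p53-responsive death protein Noxa, had 5.21, 3.89, 7.73 and 7.69 CPM in rTg4510+3TC, 4.65, 5.1, 5.78 and 6.09 in rTg4510 and 1.57, 1.59, 2.63 and 3.02 in littermates, without overlap between rTg4510+3TC and littermates. The log2 difference of 1.47 ± 0.28 did not pass (adjusted p = 0.162, edgeR). Its list of 25 tested p53 target genes had 0 called, with 8 members above 0, 17 below and a median of -0.06, and 1 member without overlap, Pmaip1 itself. Bax, a death effector in the same list, stood at -0.19 ± 0.10. Adgrg1, an adhesion receptor of neural precursors and microglia, had 188, 178, 167 and 160.3 CPM in rTg4510+3TC and 117, 99.2, 88.8 and 128 CPM in littermates (0.68 ± 0.13, adjusted p = 0.162).

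Itgb2 was the gene of the immune system that passed. It encodes the beta-2 integrin chain, which pairs with Itgam to form complement receptor 3 and with Itgax to form complement receptor 4 on microglia and other leukocytes. Itgb2 (chr10:77530252-77565708, + strand) had 10.8, 12.4, 12.2 and 11.9 CPM in rTg4510+3TC, 9.53, 9.18, 9.35 and 7.4 in rTg4510 and 4.74, 5.07, 6.16 and 4.29 in littermates. The 3 groups were again in order without overlap, here with rTg4510+3TC highest. The means were 11.8 ± 0.738 CPM in rTg4510+3TC and 5.06 ± 0.798 CPM in littermates (SD, n = 4 each), and the log2 fold change was 1.23 ± 0.15 (SE, adjusted p = 0.00435, edgeR). Between rTg4510+3TC and rTg4510 the difference was 0.42 ± 0.14, with an unadjusted p of 0.0122 and an adjusted p of 0.9998 over all genes. In rTg4510 without drug the difference from littermates was 0.81 ± 0.15 and did not pass (adjusted p = 0.218).

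Itgax, the alpha chain that pairs with Itgb2 and a marker of microglia around lesions, had 0.684, 3.8, 3.83 and 1.54 CPM in rTg4510+3TC, 1.36, 0.798, 1.24 and 1.59 in rTg4510 and 0.104, 0, 0.174 and 0.178 in littermates. The littermate values rest on 6, 0, 6 and 7 counts, and 3 counts correspond to 0.0519 to 0.109 CPM in these libraries (counting error only). The fitted log2 difference of 4.36 ± 0.73 depends on the prior count at such levels, and it did not pass (adjusted p = 0.0715, edgeR). Ptprc, which encodes CD45, the phosphatase of all leukocytes, had 5.45, 8.15, 8.68 and 8.13 CPM in rTg4510+3TC, 5.02, 4.64, 6.79 and 4.56 in rTg4510 and 2.97, 3.91, 3.44 and 2.21 in littermates. The rTg4510+3TC library F2 stood below the other 3 of its group and above all littermates. The difference was 1.28 ± 0.23 (adjusted p = 0.103), and without rTg4510+3TC F2 Ptprc passed, together with Itgax, C1qa, C1qb, Ctss, Mpeg1, Blnk and Sipa1l2, for 16 genes in all.

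Among the 22 tested complement genes, 1 was called higher (Itgb2) and 0 lower. Members above 0 numbered 14 and those below 0 numbered 8, with a median of 0.28, against -0.00399 over all genes. The median was 0.16 without rTg4510+3TC M2 and 0.46 without littermates F1 and F3 and rTg4510 M1. In 7 of the 22 the groups did not overlap and rTg4510+3TC was higher, against 2.95% of all genes. The list's median was 0.31 in rTg4510 against the same littermates, and 0.14 between rTg4510+3TC and rTg4510, where 0 members passed. C1qa and C1qb encode chains of C1q, made by microglia. C1qa had 67.7, 109.6, 115 and 74.3 CPM in rTg4510+3TC, 80.1, 60.2, 84.7 and 74.4 in rTg4510 and 47.1, 48.6, 59.3 and 48.8 in littermates, a difference of 0.85 ± 0.17. C1qb had 42.7, 72.8, 69.2 and 53.8 CPM in rTg4510+3TC, 54.7, 45.9, 56.3 and 53.4 in rTg4510 and 30.6, 33.7, 41.7 and 31.6 in littermates, a difference of 0.79 ± 0.16. In both, the lowest rTg4510+3TC library was F2 and the highest littermate M2, and neither passed (adjusted p = 0.162 for each, edgeR).

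C4b, which encodes complement component 4 and is made by reactive astrocytes and other glia, had 69.7, 148, 146 and 88.3 CPM in rTg4510+3TC, 132, 22.1, 107 and 98.3 in rTg4510 and 33.1, 23.4, 19.8 and 31.7 in littermates. The spread within rTg4510+3TC was wide, with F3 and M2 high, and within rTg4510 library F3 was at littermate level. The difference was 2.06 ± 0.43 (adjusted p = 0.186, edgeR). With the 8 libraries of the 2 groups fitted alone, 9 genes passed: C4b, Col6a1 and Padi2 were gained, and Car4 (adjusted p = 0.0745) and Dmpk (adjusted p = 0.0593) were lost. C3, the central component of the cascade, had 4.91, 19.7, 16.2 and 4.32 CPM in rTg4510+3TC and 3.44, 4.09, 2.4 and 1.8 CPM in littermates (1.95 ± 0.62, adjusted p = 0.415), and C3ar1, the receptor of its cleavage product C3a, 2.95 to 7.57 and 1.34 to 2.06 CPM (1.29 ± 0.31, adjusted p = 0.275).

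Of the 26 tested genes of microglial immunoreceptor signalling, 1 was called higher (Itgb2) and 0 lower. Members above 0 numbered 23, with a median of 0.56, and 7 did not overlap in the higher direction, against 2.95% of all genes. Cd37, a tetraspanin of leukocytes, had 5.89, 5.92, 7.08 and 5.86 CPM in rTg4510+3TC and 2.61, 2.5, 3.93 and 3.68 CPM in littermates (0.96 ± 0.24, adjusted p = 0.302, edgeR). Fcer1g, the adaptor of Fc receptors, had 6.61, 9.69, 11.9 and 9.01 CPM in rTg4510+3TC and 3.94, 6.01, 6.57 and 5.12 CPM in littermates (0.78 ± 0.20, adjusted p = 0.302). Together the 26 genes summed to 198 to 295 CPM in rTg4510+3TC, 224 to 260.1 in rTg4510 and 165 to 216 in littermates, with rTg4510+3TC F2 the lowest of its group and within the littermate range. The list's median was 0.48 in rTg4510 against the same littermates, and 0.09 between rTg4510+3TC and rTg4510, where 0 members passed.

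Disease-associated microglia are a state found around plaques and in degeneration, in which lipid and phagocytosis genes are switched on. Of its 27 tested genes, 0 were called, 23 were above 0 and 4 below, and the median was 0.35. Of the 27, 7 did not overlap in the higher direction, against 2.95% of all genes. Together the 27 genes summed to 4490 to 4876 CPM in rTg4510+3TC, within the littermate range of 4347 to 5014 CPM. In rTg4510 the sum was 3705 to 4712 CPM. The list's median was 0.26 in rTg4510 against the same littermates, and 0.14 between rTg4510+3TC and rTg4510, where 0 members passed. Members of the list include Itgax, also in the complement list, and B2m, also in the MHC class I list. Clec7a, the lectin receptor dectin-1, had 2.05, 3.69, 2.57 and 1.43 CPM in rTg4510+3TC, 1.09, 0.484, 3.66 and 0.718 in rTg4510 and 0, 0.217, 0.0868 and 0.178 in littermates, where the counts were 0, 6, 3 and 7. Its fitted difference of 4.40 ± 0.88 did not pass (adjusted p = 0.162, edgeR). Lyz2, lysozyme, had 8.12, 12.1, 10.9 and 7.47 CPM in rTg4510+3TC and 5.97, 4.16, 4.19 and 4.84 CPM in littermates (1.01 ± 0.21, adjusted p = 0.186), and Igf1, a growth factor, 17.7, 13.7, 15.7 and 12.8 and 9.77, 9.84, 10.7 and 7.36 CPM (0.67 ± 0.15, adjusted p = 0.21). The genes of homeostatic microglia stood closer to 0: of 18 tested, 13 were above 0 and 5 below, the median was 0.13 (0.04 to 0.26 with 1 library left out), and 1 did not overlap, Sparc, which rTg4510+3TC F2 led with 1041 CPM. Trem2, the lipid receptor that microglia need for the disease-associated state, had 9.998, 18.9, 20.99 and 13.3 CPM in rTg4510+3TC and 9.63, 6.48, 13.4 and 10.3 CPM in littermates, with overlap (0.66 ± 0.25, adjusted p = 0.495).

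Removing rTg4510+3TC F2, highest in thalamic markers, and littermate M2, highest of its group in neocortical markers and myelin genes, left 3 against 3. The groups then did not overlap in 1319 genes (7.94%) higher and 1366 genes (8.22%) lower. The microglial signalling list then had 16 of 26 members higher without overlap, the disease-associated list 15 of 27, the homeostatic list 12 of 18 and complement 9 of 22. Removing instead littermates F1 and F3, which were high in choroid plexus markers, left 1402 genes (8.44%) higher and 1432 genes (8.62%) lower without overlap. The same 4 lists then had 8 of 26, 11 of 27, 1 of 18 and 8 of 22 members higher. Markers of border macrophages, the macrophages of meninges and vessels that share genes with microglia, summed to 25.7 to 43.99 CPM over 11 tested genes in rTg4510+3TC, 26.6 to 45.02 in rTg4510 and 25.7 to 31.3 in littermates. None of the 11 was at 0 in any library, 9 were above 0 in the contrast with a median of 0.29, and 0 were without overlap. Their part in the microglial values was not tested.

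**Figure D3:**
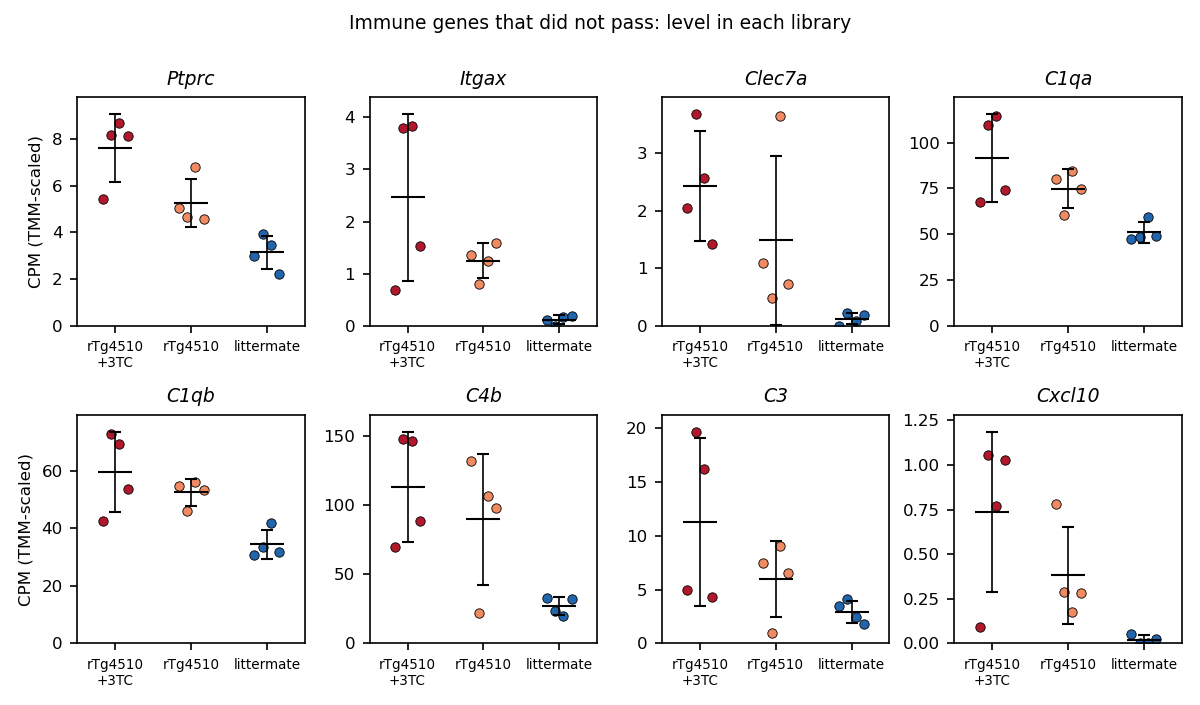
Level in CPM of 8 immune genes, none of which passed, in each library of rTg4510+3TC (left), rTg4510 (middle) and littermates (right), with the mean and SD of 4 libraries. C1qa lay between 67.7 and 115 CPM in rTg4510+3TC and between 47.1 and 59.3 CPM in littermates. In rTg4510+3TC the libraries F3 and M2 were the highest for Itgax, C4b and C3.

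Type I interferons are induced by foreign or misplaced nucleic acid, including DNA copies of retrotransposons. Of 36 tested genes of the interferon response, 0 were called, 29 were above 0 and 7 below, and the median was 0.34. Of the 36, 4 were without overlap in the higher direction, against 2.95% of all genes. Without littermate M3 the median was 0.20. In rTg4510 without drug the median against the same littermates was 0.13, and between rTg4510+3TC and rTg4510 it was 0.19, where 0 members passed. Cxcl10, an interferon-induced chemokine, had 3, 37, 25 and 28 counts in rTg4510+3TC, 23, 10, 6 and 9 in rTg4510 and 3, 0, 0 and 1 in littermates. It was therefore near the limit of detection in littermates and in rTg4510+3TC F2, and its difference did not pass (adjusted p = 0.205, edgeR). Oasl2, an interferon-induced gene with near copies, had 3.78, 4.23, 4.67 and 9.64 CPM in rTg4510+3TC and 2.65, 1.16, 2.57 and 3.4 CPM in littermates (1.18 ± 0.36, adjusted p = 0.399), with M3 far above the other rTg4510+3TC libraries. Irf9, a transcription factor of the response, stood at -0.54 ± 0.20.

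Upstream of that response stand sensors of nucleic acid and genes that control retroelements, and 0 genes of either list were called. Of 17 tested sensors of cytosolic and endosomal nucleic acid, 0 were called, 12 were above 0 and 5 below. The median was 0.20 (0.10 without rTg4510+3TC M2), and 0 were without overlap in either direction. Cgas, Sting1 and Ifi204 of this list were not among the genes tested under these symbols. Of 27 genes that restrict or silence retroelements, 0 were called, 11 were above 0 and 16 below, and the median was -0.04. Without overlap, 1 was higher and 2 lower, against 2.95% and 2.91% of all genes. Rnaseh2c, a subunit of the nuclease that cuts RNA in RNA-DNA hybrids, had 13.5, 15.5, 12.8 and 14.4 CPM in rTg4510+3TC and 15.6, 18.8, 20.2 and 18.5 CPM in littermates (-0.38 ± 0.11, adjusted p = 0.359, edgeR). Cbx5, heterochromatin protein 1 alpha, had 212, 208, 225 and 227 CPM in rTg4510+3TC and 199, 193, 176 and 202 CPM in littermates (0.18 ± 0.08), and Dnmt3a, a DNA methyltransferase, 73.6 to 84.5 and 84.8 to 109 CPM (-0.22 ± 0.10). Among 29 genes that take up, phosphorylate or export lamivudine or copy mitochondrial DNA, 0 were called and 0 were without overlap, and the median was 0.02.

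Antigen presentation followed the microglial genes in sign but did not pass. Of 15 tested genes of MHC class I, 11 were above 0, and the median was 0.28. Higher without overlap were 2 of the 15, against 2.95% of all genes. These were B2m, the light chain, with 73.3, 88.1, 94.3 and 73.2 CPM in rTg4510+3TC and 68.3, 63.2, 72.3 and 54.3 CPM in littermates (0.35 ± 0.12), and Tap2, a peptide transporter subunit, with 13.96 to 15.7 and 10.5 to 12.4 CPM (0.34 ± 0.10). Of 10 genes of MHC class II, 8 were above 0 with a median of 0.60, and 0 were without overlap. Ctss, a protease that cuts the invariant chain bound to class II, had 72.1, 125, 128 and 91.02 CPM in rTg4510+3TC and 56.98, 57.1, 72.6 and 56.8 CPM in littermates, where only F2 of rTg4510+3TC fell within the littermate range (0.77 ± 0.17, adjusted p = 0.237, edgeR).

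In the Toll-like receptor and NF-kB list, by contrast, the 3 genes without overlap were lower: Nfkbia, the inhibitor of NF-kB, had 14.3, 14.9, 15.8 and 16.7 CPM in rTg4510+3TC and 20.6, 23.9, 23.7 and 21.5 CPM in littermates (-0.54 ± 0.13, adjusted p = 0.275, edgeR). The other 2 were Chuk (-0.33 ± 0.09), a kinase of that inhibitor, and Irak1 (-0.21 ± 0.06), a kinase downstream of the receptors. The list as a whole had 18 of 27 members above 0, a median of 0.10 and 0 called. The share of all genes lower without overlap was 2.91%.

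Reactive astrocytes were represented by 26 tested genes, of which 0 were called, 23 were above 0 and 3 below, with a median of 0.50. Of the 26, 5 were without overlap in the higher direction, against 2.95% of all genes. S100a10, an annexin partner also made by other cells, had 16.5, 18.6, 18.05 and 15.4 CPM in rTg4510+3TC, 15.6, 15.8, 15.3 and 13.04 in rTg4510 and 9.77, 8.76, 10.5 and 13.3 in littermates (0.69 ± 0.13, adjusted p = 0.162, edgeR). Gfap, the intermediate filament of astrocytes, had 523, 1276, 1240.2 and 713 CPM in rTg4510+3TC, 1243, 213, 686 and 809.8 in rTg4510 and 447, 386, 282 and 408 in littermates. F3 and M2 of rTg4510+3TC were high, as for C4b, and F3 of rTg4510 was below every littermate. The difference of 1.30 ± 0.42 did not pass (adjusted p = 0.415). The list's median was 0.16 in rTg4510 against the same littermates, and 0.34 between rTg4510+3TC and rTg4510, where 0 members passed. Without rTg4510 F3, the library high in neocortical markers, these medians were 0.23 and 0.21.

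Genes of astrocyte identity had a median of 0.09 over 20 tested genes, with 16 above 0 and 4 below. Without rTg4510+3TC F2 and littermate M2, 10 of the 20 were higher and 1 lower without overlap, against 7.94% and 8.22% of all genes. Without littermates F1 and F3, 2 were higher and 1 lower, against 8.44% and 8.62%. Aqp4, the water channel of astrocyte endfeet, had 207, 199.6, 218 and 215 CPM in rTg4510+3TC and 165, 167, 132 and 167 CPM in littermates (0.41 ± 0.11, adjusted p = 0.336, edgeR). Slco1c1, a thyroid hormone transporter of vessels and astrocytes that the choroid plexus also expresses, had 37.2, 43.5, 44.8 and 44.8 CPM in rTg4510+3TC and 65.9, 56.5, 70.1 and 50.5 CPM in littermates (-0.51 ± 0.20). The part of choroid plexus tissue in this difference was not tested.

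**Figure D4:**
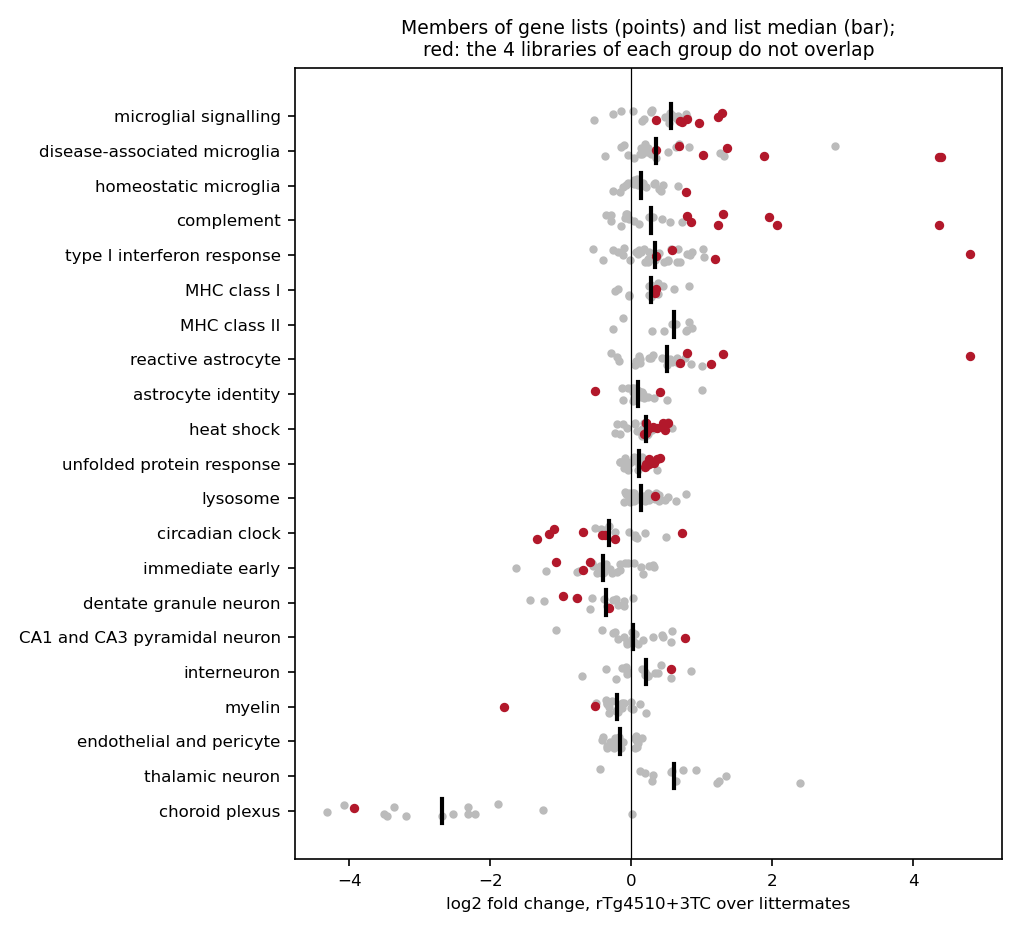
Log2 fold change of rTg4510+3TC over littermates for the tested members of 21 gene lists. Each point is a gene, the bar is the list's median, and red points are genes whose libraries do not overlap between the groups. The microglial signalling list has a median of 0.56 and the circadian clock list one of -0.32. The choroid plexus list, at -2.68, moves with littermates F1 and F3.

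Circadian clock genes form a loop in which Arntl (BMAL1) and Clock switch on their own repressors, the Per and Cry genes, and output genes such as Dbp. They do so through E-boxes, and Dbp, Tef and Hlf act through D-boxes. Of 19 clock genes tested, 0 were called, 6 were above 0 and 13 below, and the median was -0.32. In 7 of the 19 the groups did not overlap and rTg4510+3TC was lower, against 2.91% of all genes, and in 1 it was higher. Without rTg4510+3TC F2 and littermate M2 the lower count was 8 of 19, against 8.22% of all genes. Without littermates F1 and F3 it was 7 of 19, against 8.62%. The time of day at which tissue was taken is not given in the sources used here.

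Promoter windows of 3 clock genes that were lower are shown because they hold the letters these factors read. Each runs from 250 bases before to 50 after a RefSeq start (GRCm38.p6), 5′ to 3′ along the gene, with every E-box (CACGTG) and D-box (TTATGTAA, on either strand) in capitals.
Per1 (chr11:69098699-69098998, + strand): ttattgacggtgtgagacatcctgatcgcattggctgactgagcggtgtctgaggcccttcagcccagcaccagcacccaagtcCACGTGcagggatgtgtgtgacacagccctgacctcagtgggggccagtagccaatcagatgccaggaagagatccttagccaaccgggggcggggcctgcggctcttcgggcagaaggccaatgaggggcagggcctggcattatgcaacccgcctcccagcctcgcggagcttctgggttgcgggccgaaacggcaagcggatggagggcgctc
Per3 (chr4:151044616-151044915, - strand): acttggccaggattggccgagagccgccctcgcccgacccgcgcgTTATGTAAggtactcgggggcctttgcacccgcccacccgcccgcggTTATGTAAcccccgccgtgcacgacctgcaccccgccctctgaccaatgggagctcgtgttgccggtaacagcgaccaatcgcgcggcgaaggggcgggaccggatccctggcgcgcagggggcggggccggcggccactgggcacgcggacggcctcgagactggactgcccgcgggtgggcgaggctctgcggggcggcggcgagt
Ciart (chr3:95882179-95882478, - strand): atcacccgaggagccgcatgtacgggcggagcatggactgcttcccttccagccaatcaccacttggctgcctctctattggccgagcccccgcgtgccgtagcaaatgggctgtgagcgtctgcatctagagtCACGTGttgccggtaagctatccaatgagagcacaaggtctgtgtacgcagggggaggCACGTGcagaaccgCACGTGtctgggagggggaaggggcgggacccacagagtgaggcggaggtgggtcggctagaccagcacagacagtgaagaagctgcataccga
Of the 19 clock genes, 17 had such a window, with 23 windows in all. An E-box was found in 6 of the 23 windows, from 5 genes, and a D-box in 1. The windows of Dbp, Nr1d1 and Cry2, which were also lower without overlap, held neither. Each window of Tef, also lower without overlap, held 1 E-box. Bhlhe41 and Cry1, which were not among the genes lower without overlap, had 1 E-box each. Over 32851 windows of the same length, 7.15% held an E-box and 0.938% a D-box. A match describes letters in a window and does not show a site in use.

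Per1 has 1 E-box in the window shown and 0 in its other window. It had 61.2, 54.9, 80.7 and 84.1 CPM in rTg4510+3TC, 69.8, 80.6, 74.99 and 105 in rTg4510 and 104, 108, 120.2 and 117 in littermates, a difference of -0.68 ± 0.15 (adjusted p = 0.213, edgeR). Per3, whose window has 2 D-boxes, had 30.6, 14.9, 26.98 and 28.5 CPM in rTg4510+3TC, 27.7, 40.7, 23.7 and 36.6 in rTg4510 and 46.6, 56.3, 65.6 and 48.4 in littermates, a difference of -1.10 ± 0.22 (adjusted p = 0.162). Ciart, a repressor of the loop with 3 E-boxes in its window, had 10.2, 3.23, 4.88 and 6.01 CPM in rTg4510+3TC, 4.17, 12.8, 4.78 and 10.7 in rTg4510 and 11.5, 14.2, 23.02 and 12.8 in littermates (-1.33 ± 0.41, adjusted p = 0.407). In each the highest rTg4510+3TC library stayed below the lowest littermate, while rTg4510 libraries reached the littermate range for Per1 and Ciart.

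Dbp, the output factor, had 44.8, 22.2, 22.4 and 40.05 CPM in rTg4510+3TC, 36.9, 64.3, 17.5 and 51.2 in rTg4510 and 69.6, 66.2, 96.7 and 57.6 in littermates (-1.17 ± 0.34, adjusted p = 0.387, edgeR). Its relative Tef stood at -0.42, Nr1d1, which represses Arntl, at -0.37, and Cry2 at -0.24. Arntl itself went the other way, with 41.7, 62.6, 56.5 and 44.8 CPM in rTg4510+3TC, 52.7, 53.5, 49.97 and 38.01 in rTg4510 and 29.3, 32.2, 31.4 and 32.5 in littermates (0.71 ± 0.14, adjusted p = 0.162). Its partner Clock had 95.6, 96.8, 90.6 and 91.6 CPM in rTg4510+3TC and 87.8, 93.6, 82.98 and 89.3 CPM in littermates, with overlap (0.08 ± 0.07). In rTg4510 without drug the differences from the same littermates were 0.63 for Arntl, -0.75 for Per3 and -0.77 for Dbp, and the clock list's median was -0.21. Between rTg4510+3TC and rTg4510 the list's median was -0.13, and 0 members passed.

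**Figure D5:**
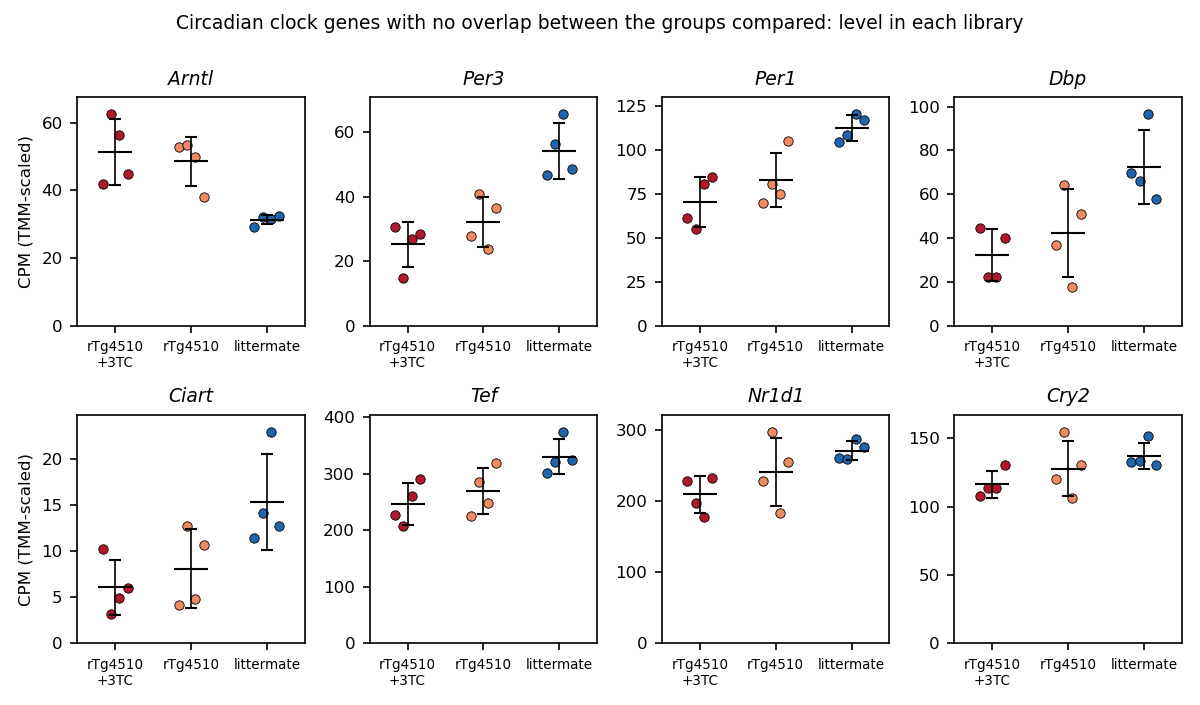
Level in CPM of the 8 clock genes whose libraries do not overlap between rTg4510+3TC and littermates, in each library of rTg4510+3TC (left), rTg4510 (middle) and littermates (right), with the mean and SD of 4 libraries. Arntl was higher in rTg4510+3TC, at 41.7 to 62.6 CPM against 29.3 to 32.5 CPM in littermates, and the other 7 were lower. None passed the test.

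Cytosolic chaperones of the heat shock response refold proteins. Their list had the largest number of members out of overlap, though the clock and insertion-site lists had larger shares. Of 28 tested, 0 were called, 23 were above 0 and 5 below, the median was 0.20, and 10 did not overlap in the higher direction, against 2.95% of all genes. Hspa4l, a nucleotide exchange factor of Hsp70, had 165, 112, 135 and 116 CPM in rTg4510+3TC, 112, 107, 114 and 117 in rTg4510 and 96.6, 90.2, 90.1 and 90.3 in littermates (0.52 ± 0.10, adjusted p = 0.162, edgeR). Hsp90aa1, the inducible Hsp90, had 1108, 1012, 1071 and 926 CPM in rTg4510+3TC, 872, 941, 1007 and 876 in rTg4510 and 817, 769.8, 746 and 859 in littermates (0.37 ± 0.08, adjusted p = 0.217). The differences were small and the spread within littermates narrow, as for Hspa8, the constitutive Hsp70, with 1406 to 1656 CPM in rTg4510+3TC and 1164 to 1289.9 CPM in littermates (0.30 ± 0.08), and Hsph1, with 342 to 478 and 287 to 333 CPM (0.45 ± 0.12).

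The strongly inducible members Hspa1a and Hspa1b, which are near-identical copies and so uncertain as counted, stood at 0.13 ± 0.17 and 0.53 ± 0.23, with overlap. Without rTg4510+3TC F2 and littermate M2, 12 of the 28 were higher and 2 lower without overlap, against 7.94% and 8.22% of all genes. Without littermates F1 and F3, 13 were higher and 0 lower, against 8.44% and 8.62%. The heat shock list's median was 0.07 in rTg4510 against the same littermates, and 0.13 between rTg4510+3TC and rTg4510, with 0 members past the threshold. Chaperones and sensors of the endoplasmic reticulum showed smaller differences: of 27 tested genes of the unfolded protein response, 19 were above 0, and the median was 0.11. Of the 27, 7 were higher without overlap, against 2.95% of all genes. Sel1l, a part of the degradation machinery of that organelle, had 219 to 239.8 CPM in rTg4510+3TC and 186 to 202 CPM in littermates (0.25 ± 0.06, adjusted p = 0.336), and Eif2ak3, the stress sensor PERK, 32.3 to 44.8 and 24.96 to 30.9 CPM (0.40 ± 0.11, adjusted p = 0.341).

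Among neurons, the markers of dentate granule cells were mostly lower. Of 16 tested, 15 were below 0 with a median of -0.36, 3 were lower without overlap, against 2.91% of all genes, and 0 were called. Npnt, nephronectin, a matrix protein, had 28.9, 21.6, 15.9 and 22.7 CPM in rTg4510+3TC, 20.3, 28.6, 14.04 and 18.2 in rTg4510 and 35.6, 44.9, 50.7 and 44.3 in littermates (-0.98 ± 0.21, adjusted p = 0.21, edgeR). Stxbp6, a binding protein of SNARE complexes, had 63.1, 42.3, 47.2 and 57.97 CPM in rTg4510+3TC and 85.6, 99.8, 81.6 and 93.3 CPM in littermates (-0.77 ± 0.21, adjusted p = 0.341), and Calb1, the calcium buffer calbindin, 75.3 to 91.8 and 96.3 to 122 CPM (-0.32 ± 0.14). The markers summed to 411 to 564 CPM in rTg4510+3TC, 507 to 624 in rTg4510 and 585 to 822 in littermates, without overlap between rTg4510+3TC and littermates. Thalamic markers were high in rTg4510+3TC F2, the library lowest in this sum. Without rTg4510+3TC F2 and littermate M2, 8 of the 16 were lower without overlap, against 8.22% of all genes. Without littermates F1 and F3 it was 3 of the 16, against 8.62%. The list's median was -0.31 in rTg4510 against the same littermates, and -0.04 between rTg4510+3TC and rTg4510, where 0 members passed. Without rTg4510 F3, the library high in neocortical markers, these medians were -0.21 and -0.17.

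Pyramidal neurons of CA1 and CA3 had a median of 0.02 over 20 tested markers, and interneurons 0.20 over 20, with 0 called in either. Gad2, a GABA-making enzyme, had 334, 196, 205 and 175 CPM in rTg4510+3TC and 158, 150.4, 147 and 159 CPM in littermates (0.57 ± 0.18, adjusted p = 0.415, edgeR). The highest value was in rTg4510+3TC F2. Postsynaptic genes had a median of -0.06 over 29 tested and presynaptic genes one of 0.05 over 26, with 0 without overlap in either list.

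Immediate early genes, switched on within minutes of neuronal activity, were below 0 in 26 of 32 tested, with a median of -0.41 and 0 called. Of the 32, 3 were lower without overlap, against 2.91% of all genes. The 3 were Per1, Fosl2, an AP-1 subunit, with 23.2, 36.3, 44.1 and 45.2 CPM in rTg4510+3TC and 52.4, 54.9, 60.1 and 55.2 CPM in littermates (-0.58 ± 0.18), and Klf2, a zinc finger factor that vessels also express, with 7.11, 6.69, 6.12 and 8.24 and 14.3, 8.32, 24.4 and 12.1 CPM (-1.07 ± 0.28). Arc, the best known gene of this kind in synaptic plasticity, overlapped widely, with 41.2, 73.6, 132 and 137 CPM in rTg4510+3TC and 83.7, 255, 430.1 and 123 CPM in littermates. Littermate M2 was the highest for Arc and for Klf2. When rTg4510+3TC F2, rTg4510 F3 and littermate M2 were left out of the fit, the list's median was 0.03, and without littermate M2 alone it was -0.18.

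Myelin genes were below 0 in 18 of 21 tested, with a median of -0.20 and 0 called. Of the 21, 2 were lower without overlap, against 2.91% of all genes. Mal, a proteolipid of compact myelin, had 216, 188, 194 and 243 CPM in rTg4510+3TC, 228, 93.9, 188 and 222 in rTg4510 and 264, 273, 425 and 246 in littermates (-0.52 ± 0.24, adjusted p = 0.581, edgeR). The other gene, Enpp2, is made by oligodendrocytes and by choroid plexus, and had 249.6, 251, 239 and 237 CPM in rTg4510+3TC and 1772, 1077, 305 and 252 CPM in littermates, with F1 and F3, the littermates high in Ttr, far above the others. Without littermate M2, the list's median was 0.01. Endothelial and pericyte genes had 16 of 23 below 0 and a median of -0.16, with 0 called and 0 without overlap. The smallest p among them was that of Slc2a1, the glucose transporter of the blood-brain barrier, at -0.41 ± 0.12 (adjusted p = 0.365).

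Ribosomal protein genes were below 0 in 42 of 49 tested with a median of -0.11, and 0 were without overlap. Without littermate M2 their median was 0.0059, and without littermates F1 and F3, 10 of the 49 were lower without overlap, against 8.62% of all genes. Other housekeeping lists stood nearer the centre of all genes. Nuclear genes of oxidative phosphorylation had a median of -0.01 over 45, proteasome subunits 0.03 over 31, autophagy genes 0.04 over 25, and tau kinases and phosphatases -0.01 over 34, with 0 called in any of them. Lysosomal genes had 27 of 35 above 0 and a median of 0.14, led by Ctss and Ctsz, a cathepsin (0.52 ± 0.14, adjusted p = 0.341, edgeR).

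The untreated rTg4510 libraries give the values of the same genes without the drug. They share the littermate libraries with the contrast above, so agreement between the 2 contrasts is not independent. Against those littermates, 5 genes passed in rTg4510 (0.0301%): Prnp (1.70 ± 0.16), Slc35f1 (1.12 ± 0.11), Esyt2 (-0.95 ± 0.11), Wdr60 (-0.86 ± 0.10) and Ptprn2 (-0.61 ± 0.08). Without rTg4510 F3, 9 genes passed. Car4 stood at 1.26 ± 0.19 there and just missed the threshold (adjusted p = 0.0522, edgeR). Itgb2, at 0.81 ± 0.15, and Dmpk, at -0.35 ± 0.10, did not pass (adjusted p = 0.218 and 0.945).

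The difference between rTg4510+3TC and rTg4510 was tested in the same fit and gave 0 genes (0%), with a smallest adjusted p of 0.9998 (edgeR quasi-likelihood test), and 0 without rTg4510 F3. The unadjusted p was under 0.05 for 635 genes, 280 higher and 355 lower in rTg4510+3TC. Of the 8 genes called against littermates, Itgb2 and Dmpk had the largest differences from rTg4510 relative to their errors, 0.42 ± 0.14 and -0.33 ± 0.10. The other 6 lay at -0.01 ± 0.16 for Prnp, 0.10 ± 0.11 for Slc35f1, 0.07 ± 0.19 for Car4, -0.06 ± 0.11 for Esyt2, -0.06 ± 0.11 for Wdr60 and -0.04 ± 0.08 for Ptprn2. That a gene passed against littermates in rTg4510+3TC and not in rTg4510 is therefore not shown to be a difference between the treated and untreated mice.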

How the data were processed

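Polyadenylated RNA of hippocampus was extracted with Trizol and spin columns and sequenced from TruSeq libraries, per the labels' protocols. The authors deposited raw counts of reads, by gene symbol, in a table of 24411 entries and 12 libraries. STAR, DESeq2 and mm10 are named in the submitters' processing notes. No source used here states the annotation, the strand setting or a filter of the counting, and overlapping genes may share reads. Entries bearing dates in place of symbols (27, with 0.285% to 0.363% of counts) were left out of library sizes and tests.

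From these counts, edgeR 4.0.16 (R 4.3.3) fitted all 12 libraries with group as the only term, after TMM scaling and filterByExpr (minimum count 10, minimum total 15), which left 16618 genes. Contrasts were tested by quasi-likelihood with Benjamini-Hochberg adjustment over all of them. The common dispersion was 0.0817, with 9 residual and 4.01 prior degrees of freedom. CPM use TMM-scaled totals, and ± after a log2 fold change is its SE. Positions came from GENCODE M21 on mm10, with 15960 tested genes matched by symbol, and promoters from RefSeq (GRCm38.p6).

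The comparison, the 50 gene lists and the alternatives were chosen with earlier results of these data known. Named are the called genes with the largest fold (up to 12 a direction, at least 1 CPM and no overlap), filled to 10 a direction by smallest p, the insertion-site genes, and up to 4 members of a list by smallest p. Further list members were named after their values were seen. Libraries of a group differed beyond sampling noise (the lowest chi-square per gene was 16.6). Alternatives were other size factors, filters, DESeq2 1.42.0, limma 3.58.1 (voom), sex terms, a replicate block, the 8 libraries alone, and other subsets of libraries, the overlap counts without 2 libraries, the block with exchanged codes and the medians without rTg4510 F3 having been chosen after seeing the data. Fits were tested on simulated data.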

Additional observations from a re-analysis of the deposited data

Results flagged for a closer look

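In 72 groups of 4 libraries, for the genes that passed or were named by smallest p and those of the insertion sites, 4 held a library far from the other 3. Chance gives about 1 in 20 such groups. Camk2a had 2457 CPM in rTg4510+3TC F2, against 4974 to 5329 CPM in the other libraries of that group. Ptprc had 5.45 CPM in rTg4510+3TC F2, against 8.13 to 8.68 CPM in the others. Itgb2 had 7.4 CPM in rTg4510 M3, against 9.18 to 9.53 CPM in the others. Rilpl1 had 73.3 CPM in littermate M3, against 68.8 to 69.3 CPM in the others. The library rTg4510+3TC F2, which holds 2 of the 4, was also the highest of all 12 in thalamic neuron markers, at a summed 1711 CPM. The part of that tissue in the values was not tested.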

How the results depend on the processing

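The 8 calls were kept with DESeq2 size factors, no filter and a stricter filter (8 each), limma-voom (9) and labelled sex (10). With the 8 libraries of the 2 groups fitted alone, 9 passed and Car4 and Dmpk were lost. More passed with the DESeq2 Wald test (98) and with voom quality weights (38), and the cause was not tested. Leaving out rTg4510+3TC F2 (high in thalamic markers), rTg4510 F3 and littermate M2 (high in neocortical markers) gave 71 calls, 38 higher and 33 lower, including all 8. Leaving out littermates F1 and F3 and rTg4510 M1, highest in Ttr, gave 0 in edgeR (1244 at an unadjusted p under 0.05), with 2 littermates left. With a replicate block by label code, 0 genes passed in edgeR (801 unadjusted), and 0 (818 unadjusted) when the codes of littermates F3 and M3, whose sex labels are crossed, were exchanged, a fit added after the data were seen. In these 3 fits the fold changes of the 8 genes were 94.4% to 108% of those reported. Same-numbered libraries correlated at -0.028, 0.065 and -0.025 for F3, M2 and M3 as labelled, and at 0.149, 0.065 and 0.068 after the exchange. No source states that a code marks a shared litter or day, so the pairing is not established. Without each library in turn the count ran from 6 to 16. It was 16 without rTg4510+3TC F2 and 14 without rTg4510 F3. Car4 and Dmpk were lost without most of the others, and Slc35f1, Prnp, Itgb2, Esyt2, Wdr60 and Ptprn2 passed in each of these. Of the 24 genes refitted (the 8, the next by p and those of the insertion sites), none changed direction in the 25 alternatives. For genes near 1 CPM or below, such as Itgax, Clec7a and Cxcl10, counting error adds to the spread between libraries.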
